A study of Homo sapiens with 32 samples.

Results

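CHGA, STMN2, NEFL and CBLN1 are 4 genes of neurons and hormone-secreting cells whose RNA was measured while human embryonic stem cells were differentiated towards pancreatic β-cells. They were chosen by their measured levels, for being higher in pancreatic progenitors or in immature β-like cells than at the stages before. All of their methylation peaks were taken, which gave 9 of the 26104 merged peaks and 4 of the 7978 genes in the series. CHGA (ENSG00000100604) had 4 peaks, STMN2 (ENSG00000104435) had 3, and NEFL (ENSG00000277586) and CBLN1 (ENSG00000102924) had 1 each. A peak is named by its gene and its position within the gene as listed in the counts, as in CHGA 1751.

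H1 and MEL1, 2 human embryonic stem cell lines, were sampled as undifferentiated cells (S0), at the posterior foregut stage (S3), at the pancreatic progenitor stage (S4) and when immature β-like cells had formed (S6). Each line has 2 replicates at a stage. No genetic change and no treatment other than the differentiation protocol separated the groups, and each line stands for 1 genome. The 16 RNA preparations gave 32 libraries, since each was sequenced both as input and after immunoprecipitation with an antibody to N6-methyladenosine (IP). The labels name no sorting of cells, so a library holds the RNA of a whole culture, and more cells of a type and more RNA per cell cannot be told apart. Line and any batch in which a line was differentiated cannot be told apart either.

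Input libraries held 2652830 to 6879256 counted reads and IP libraries 2378881 to 15674899. The shallowest IP libraries were those of MEL1 at S4. Mitochondrial transcripts took 11.6% to 41.0% of the input reads. In IP libraries they took 0.0465% and 0.0510% in H1 at S4, which stand apart, and 0.388% to 2.25% in the others. No replicate pair agreed as closely as repeat runs of one library would. Expression of a gene is its input count summed over its merged peaks, scaled by TMM and given in CPM, so that libraries of different depth share one scale. A gene with no merged peak has no count and was not analysed here. Of 20 transcription factors of the endocrine lineage 7 had counts, so the labelled identity of the S6 cells could be checked only in part.

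Endocrine cells and neurons share a machinery for regulated secretion, in which peptides and transmitters are packed into vesicles and released on a calcium signal. Chromogranin A, the product of CHGA, is a core protein of dense-core secretory granules and a standard marker of neuroendocrine cells, pancreatic islet cells among them. STMN2 encodes stathmin-2, which binds tubulin and controls microtubule growth in axons, and NEFL encodes the neurofilament light chain, an intermediate filament of axons. CBLN1 encodes cerebellin-1, a secreted protein that binds neurexins and organises synapses. N6-methyladenosine (m6A), the modification read out by the IP, is laid on messenger RNA by the METTL3 and METTL14 writer complex and is found mostly near stop codons.

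CHGA is shown by the 100 bases before its start site, since it is the only one of the 4 with an entry in the promoter table used and has the largest difference between the lines at S4. The sequence is the RefSeq one of build GRCh38.p14, plus strand, chr14:92923050-92923149. Capitals mark, in order, GGGCGG, TGACGTCA and TATATAA, each searched on both strands.
CHGA: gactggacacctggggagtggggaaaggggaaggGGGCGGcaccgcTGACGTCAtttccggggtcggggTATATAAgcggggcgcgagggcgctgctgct
The second, the full cyclic AMP response element, lay 54 to 47 bases before the start and was found in the same window of 411 of 35116 promoters (1.17%). The last, a TATA box sequence, lay 31 to 25 bases before the start and was found in 392 of them (1.12%). The first, the GC box, was found in 31.3%. These matches describe the letters only.

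CHGA was already well detected in undifferentiated cells and had its lowest level at S3 in both lines. Its input level at S0 was 233 and 243 CPM in the H1 libraries and 62.3 and 73.1 CPM in the MEL1 libraries. At S3 it was 18.9 and 22.2 CPM in H1 and 4.25 and 1.81 CPM in MEL1, where the libraries held only 17 and 8 reads. This is 11.6-fold lower than at S0 in H1 and 22.4-fold lower in MEL1. Every S3 library of a line lay below every other library of that line. At S4 it was 625 and 485 CPM in H1 and 56.3 and 50.5 CPM in MEL1. H1 thus passed its S0 level by 2.33-fold at S4, while the MEL1 libraries lay just below their S0 values. At S6 the level was 810 and 781 CPM in H1 and 721 and 727 CPM in MEL1. The change from S4 to S6 was 1.43-fold in H1 and 13.6-fold in MEL1, and the MEL1 stages did not overlap.

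STMN2 was near the limit of detection at S0, with 2 and 7 reads in the H1 input libraries and 1 and 9 reads in those of MEL1. At S3 it had 29 and 39 reads in H1 (5.71 and 8.03 CPM) and 0 reads in both MEL1 libraries. A count of 0 allows up to 3 reads, which is 0.751 and 0.677 CPM in these libraries. At S4 the level was 14.3 and 13.2 CPM in H1 and 51.2 and 43.9 CPM in MEL1, and the MEL1 libraries lay above those of H1. The MEL1 value at S4 was at least 66.6-fold above that at S3, against 2.0-fold in H1. At S6 STMN2 was at 266 and 282 CPM in H1 and at 90.8 and 103 CPM in MEL1, which is 19.9-fold and 2.04-fold above S4.

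NEFL was present in undifferentiated cells of both lines, at 23.7 and 18.6 CPM in H1 and at 29.0 and 14.4 CPM in MEL1. At S3 it was at 4.93 and 9.27 CPM in H1 and, like STMN2, had 0 reads in both MEL1 libraries. It was at 28.1 CPM in both H1 libraries at S4, and at 5.88 and 5.16 CPM in MEL1, where each library held 14 reads. At S6 NEFL was at 456 and 433 CPM in H1 and at 64.6 and 72.2 CPM in MEL1. From S4 to S6 this was 15.8-fold in H1 and 12.4-fold in MEL1.

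CBLN1 was near the limit of detection until S6, with at most 35 input reads in any library before. It held 9 and 10 reads in H1 and 19 and 17 reads in MEL1 at S0, and 3 and 5 reads in H1 and 3 and 0 reads in MEL1 at S3. At S4 the H1 libraries held 4 and 35 reads (0.988 and 4.80 CPM), so the replicates differed widely, and MEL1 held 6 and 7 reads. At S6 its level was 88.2 and 103 CPM in H1 and 26.1 and 14.9 CPM in MEL1. It was 33.1-fold above S4 in H1 and 8.05-fold above it in MEL1. Since the genes were chosen by changes between stages, none of these changes was tested.

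**Figure D1:**
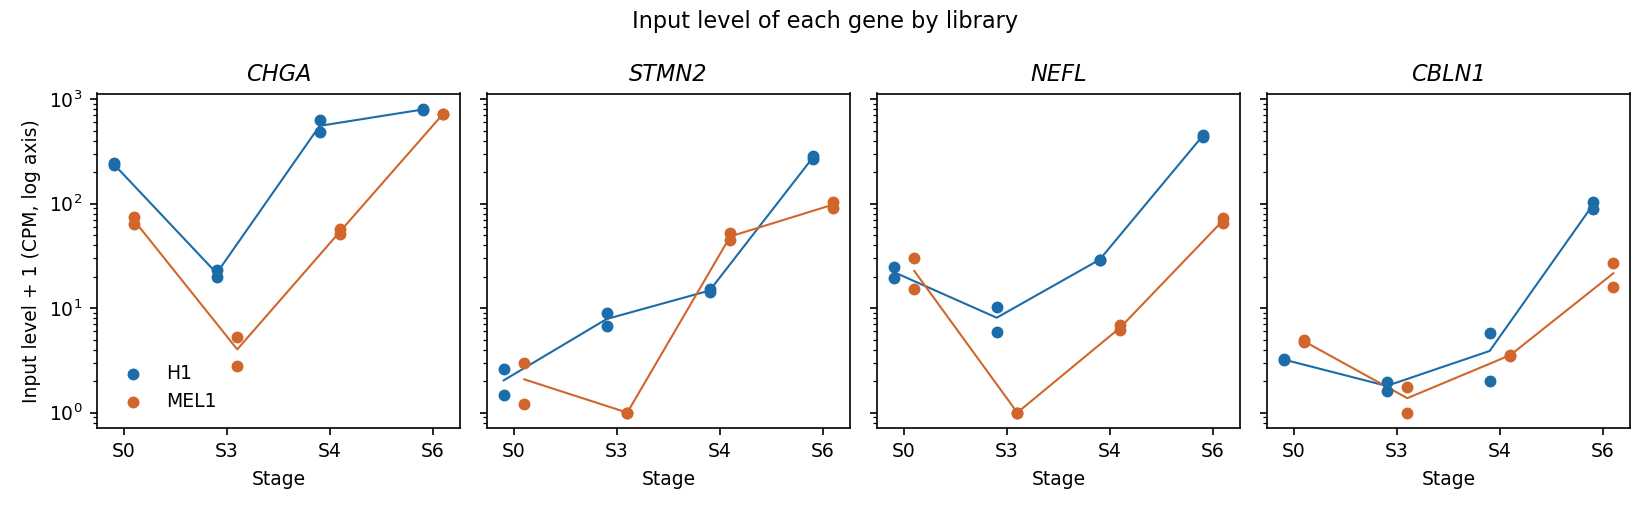
Input level of CHGA, STMN2, NEFL and CBLN1 at S0, S3, S4 and S6, as CPM plus 1 on a log axis. Each point is 1 input library, H1 in blue and MEL1 in orange, and lines join the means of the 2 replicates. All 4 genes are highest at S6 in both lines, CHGA has its lowest level at S3, and STMN2 and NEFL have 0 reads in MEL1 at S3.

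The genes were chosen for rises between stages and not for a difference between the lines. Their S4 and S6 levels in both lines entered that choice, however. Nothing is therefore read from the gap between the shares called among the 4 genes and among all genes. The difference between the lines at each stage was tested with edgeR's quasi-likelihood model over all 7973 genes that passed the count filter. Calls needed a difference of 2-fold or more and a p under 0.1 after Benjamini-Hochberg adjustment. At S0, 1 of the 4 genes was called, against 15.3% of all genes tested. CHGA was lower in MEL1 than in H1, by a log2 difference of -1.82 (SE 0.16, adjusted p = 1.95e-07). NEFL, with a log2 difference of 0.04 (SE 0.27, adjusted p = 0.932), and STMN2, with 0.01 (SE 0.72, adjusted p = 0.996), were not called. At S3, 3 of the 4 were called, with a background of 29.8%. CHGA was again lower in MEL1 (log2 -2.78, SE 0.28, adjusted p = 8.73e-08, and -3.49 without MEL1 replicate 1). STMN2 was at least 9.63-fold and NEFL at least 9.94-fold lower in MEL1, counting its libraries at the limit of 3 reads each (adjusted p = 2.46e-06 and 3.95e-06). CBLN1 was called only without MEL1 replicate 1 (adjusted p = 0.0965), which leaves a MEL1 library with 0 reads.

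At S4 the lines differed in 3 of the 4 genes, in both directions, where 34% of all genes were called. CHGA was 10.4-fold lower in MEL1 than in H1 (log2 -3.38, SE 0.18, adjusted p = 4.04e-12). NEFL was 5.10-fold lower (log2 -2.35, SE 0.35, adjusted p = 1.61e-05). STMN2 was 3.46-fold higher in MEL1 (log2 1.79, SE 0.26, adjusted p = 1.5e-05). CBLN1 was not called, with a log2 difference of -0.33 (SE 0.62, adjusted p = 0.68), and the difference turned to 1.34 without H1 replicate 2, the library with 35 reads.

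At S6, again 3 of the 4 genes were called, with a background of 22.4%. All 3 were lower in MEL1, NEFL by 6.50-fold (log2 -2.70, SE 0.24, adjusted p = 2.68e-08), CBLN1 by 4.66-fold (log2 -2.21, SE 0.38, adjusted p = 0.000107) and STMN2 by 2.82-fold (log2 -1.50, SE 0.23, adjusted p = 3.03e-05). CHGA was not called. Its 4 libraries at S6 lay between 721 and 810 CPM, and the log2 difference was -0.14 (SE 0.15, adjusted p = 0.528). The gene with the largest gap between the lines at S4 was therefore the one with the smallest at S6.

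**Figure D2:**
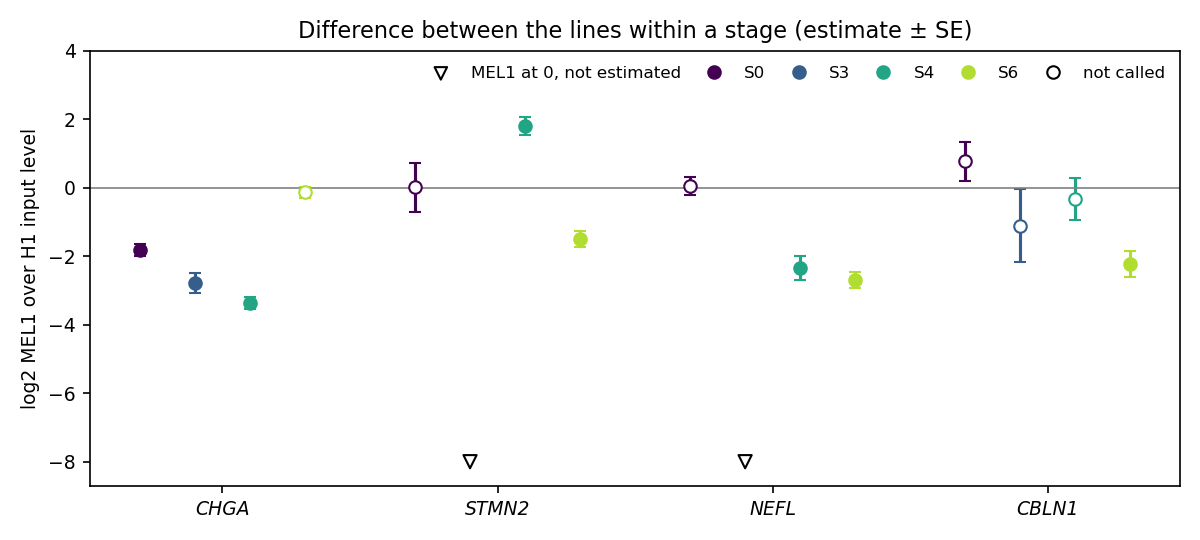
Difference in input level between MEL1 and H1 for each gene at each stage, as log2 of MEL1 over H1 with its standard error. Filled points were called and open points were not, and triangles at the lower edge stand for STMN2 and NEFL at S3, where MEL1 had 0 reads and the difference is only a bound. CHGA runs from -1.82 at S0 to -3.38 at S4 and to -0.14 at S6, while STMN2 changes sign between S4 and S6.

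The change from one stage to the next also differed between the lines, tested as the interaction of line and stage. From S4 to S6 the interaction was called for 3 of the 4 genes, against 15.3% of all genes. The genes were chosen for rises over these steps and the others were not, so nothing is read from the gap between these shares. The log2 change of CHGA was larger in MEL1 than in H1 by 3.24 (SE 0.23, adjusted p = 4.01e-09). That of STMN2 was smaller in MEL1, by a log2 difference of -3.29 (SE 0.35, adjusted p = 1.4e-06), and that of CBLN1 by -1.88 (SE 0.76, adjusted p = 0.0984). For CBLN1 the call was lost without any 1 of 6 of the 8 libraries of these stages, all but MEL1 replicate 1 at S6 and H1 replicate 2 at S4, with adjusted p from 0.148 to 0.255. Without H1 replicate 2 at S4 the value for CBLN1 was -3.56. NEFL was not called, with a difference of -0.35 (SE 0.46, adjusted p = 0.667).

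From S3 to S4, STMN2 and NEFL were called, with larger changes in MEL1 (adjusted p = 8.61e-07 and 0.0232), and 9.65% of all genes were called. Rises at S4 entered the choice of the genes as well, so nothing is read from the gap between these shares. From S0 to S3 the same 2 genes were called, with lower values in MEL1 (adjusted p = 0.000431 and 2.02e-05), and the background was 34%. Both results rest on the MEL1 libraries at S3, which held 0 reads of either gene, so no size is given for them. CHGA missed only the 2-fold limit from S0 to S3 (log2 -0.96, adjusted p = 0.0325) and was called without H1 replicate 2 at S0, H1 replicate 1 at S3, MEL1 replicate 1 at S0 or MEL1 replicate 1 at S3 (adjusted p = 0.00576 to 0.0534). CBLN1 was called without MEL1 replicate 1 at S3 (adjusted p = 0.0567). The call of NEFL from S3 to S4 was lost without MEL1 replicate 1 or replicate 2 at S3 (adjusted p = 0.102 and 0.117). Adjacent comparisons share the libraries of the stage between them.

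The m6A measure of a peak is the ratio of its IP level to its input level in a preparation, both in CPM scaled by TMM over all 32 libraries. On this scale 1 means an IP level equal to the input level, and the median over all peaks was 0.439 to 0.876 in the 16 preparations. Ratios are given where the input held at least 10 reads. The authors called and merged the peaks over the study, so a listed peak need not be enriched at each stage.

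CHGA 1751 was the most IP-enriched of the 4 CHGA peaks in H1. Its ratio was 1.81 and 1.80 at S0, 1.21 and 0.676 at S3, 2.71 and 1.97 at S4, and 0.677 and 0.743 at S6. The highest values were thus at S4, where the IP libraries held 4305 and 3801 reads of this peak over 540 and 859 input reads. In MEL1 it was 1.59 and 0.597 at S0, 0.580 and 1.0 at S4, and 0.436 and 0.520 at S6. CHGA 1751 ranked between the 45.1 and 81.0 percentile of all peaks in every preparation with a ratio except 1 of MEL1 at S3, where it was at 30.1.

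CHGA 1151, the peak with the most input reads, had ratios in H1 of 1.02 and 1.03 at S0, 0.467 and 0.377 at S3, 0.841 and 0.719 at S4, and 0.296 and 0.365 at S6. In MEL1 they were 0.500 and 0.427 at S0, 0.115 and 0.170 at S4, and 0.175 and 0.267 at S6. CHGA 2101 had 0.623 and 0.733 in H1 at S0, 1.11 and 0.809 at S4, its highest, and 0.504 and 0.455 at S6. In MEL1 it had 0.294 and 0.0441 at S0, 0 IP reads over 8 and 36 input reads at S4, and 0.101 and 0.109 at S6. The lines did not overlap in this peak at S0, S4 or S6.

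CHGA 2751, the last listed peak of the gene, had ratios from 0.00808 to 1.04. In H1 at S4 it held 14 and 24 IP reads over 589 and 738 input reads, ratios of 0.00808 and 0.0145, in the same libraries in which CHGA 1751 held 4305 and 3801 IP reads. These 2 IP libraries are those with the least mitochondrial RNA, and its part in the S4 ratios of H1 was not tested. At S0 the H1 ratios were 0.180 and 0.195, and the MEL1 ratios were 1.04 in both preparations. At S4 they were 0.102 and 0.408 in MEL1, from 3 and 11 IP reads, and at S6 they were 0.149 and 0.139 in H1 and 0.0435 and 0.0429 in MEL1.

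The 3 STMN2 peaks had ratios under 1 wherever they could be measured. The highest was 0.520 for STMN2 1051 in MEL1 replicate 2 at S4, from 14 IP reads over 18 input reads, at the 51 percentile of all peaks, while replicate 1 was at 0.0773 and H1 at 0.0773 and 0.0833. STMN2 351 was at 0.121 and 0.124 in H1 and at 0.0856 and 0.0483 in MEL1 at S6. STMN2 851 was at 0.0757 and 0.0482 in H1 at S6, and its MEL1 libraries at S6 held 4 and 0 IP reads over 60 and 41 input reads. STMN2 1051 had the highest ratios of the 3 at S6, at 0.281 and 0.212 in H1 and at 0.155 and 0.363 in MEL1.

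NEFL 1930 had an IP level close to its input level in 1 group of libraries only. Its ratio was 1.29 and 0.702 in H1 at S4, with 433 and 324 IP reads over 114 and 205 input reads. In H1 it was 0.230 and 0.118 at S0 and 0.121 in both preparations at S6, when the input level was 15.8-fold that of S4. In MEL1 it was 0.0607 and 0.0841 at S0 and 0.0491 and 0.113 at S6. MEL1 at S4 held 1 and 0 IP reads over 14 input reads in each preparation.

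CBLN1 1395 had ratios of 1.43 and 0.965 in MEL1 at S0, and 1.66 in the H1 preparation with 10 input reads. At S6, with 37 to 497 input reads, they were 0.434 and 0.410 in H1 and 0.429 and 0.646 in MEL1. The lines overlapped at S6. At S4 only 1 preparation passed 10 input reads, with a ratio of 0.254.

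**Figure D3:**
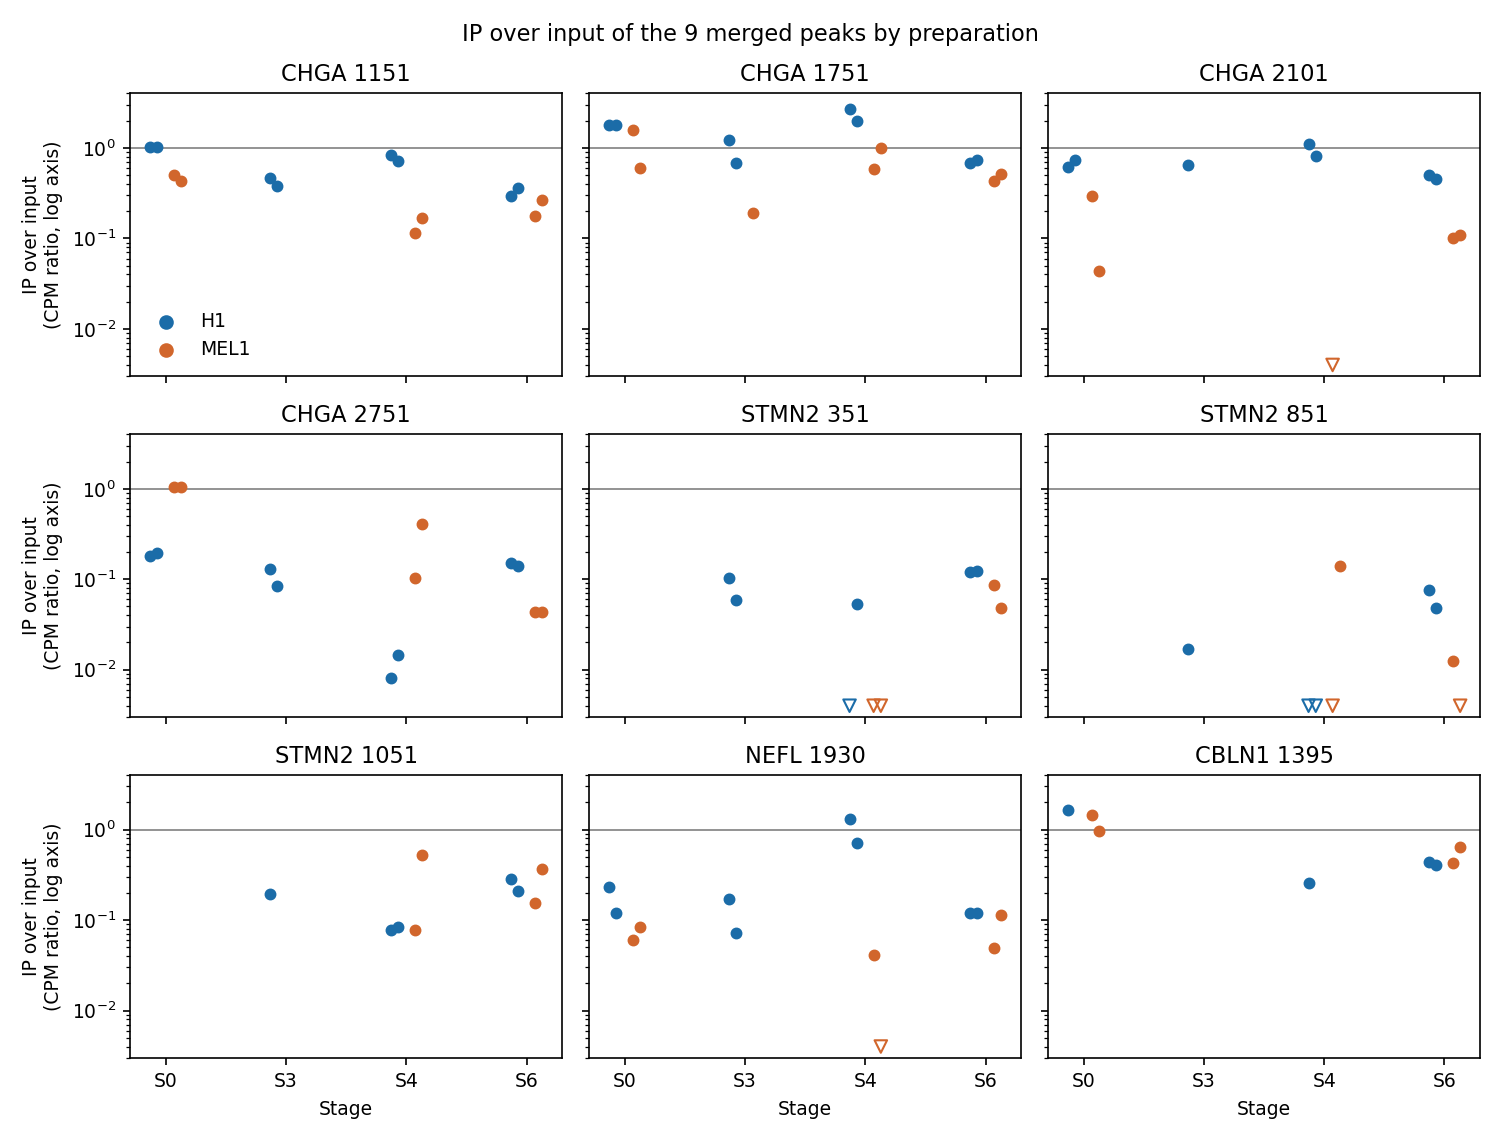
IP over input for the 9 merged peaks at S0, S3, S4 and S6, on a log axis, 1 point per preparation with at least 10 input reads. H1 is in blue and MEL1 in orange, the line marks a ratio of 1, and triangles at the lower edge stand for IP counts of 0. CHGA 1751 lies highest among the CHGA peaks in H1, CHGA 2751 drops to 0.00808 and 0.0145 in H1 at S4, and NEFL 1930 comes near 1 only in H1 at S4.

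IP and input were compared within each stage over all 26104 peaks, with the cell line in the model. None of the 9 peaks was called higher in IP at any stage, also at an unadjusted p under 0.05 and in DESeq2, but the background depended on the scaling. With RLE factors the median log2 value of all peaks moved from 0.28 to -0.34 at S0 and from -0.12 to -0.62 at S6, and 19.6% of peaks were called higher and 32.6% lower at S0. With TMM factors taken within input and within IP libraries the median at S4 moved from -0.30 to 0.22, with 29.6% higher and 25.2% lower, and CHGA 1751 was called higher there (log2 1.33, adjusted p = 0.0564). It was also called higher at S4 with H1 alone in the model (log2 1.31, adjusted p = 3.85e-07), against -0.32 with MEL1 alone.

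At S0, 30.7% of all peaks were called higher and 24.9% lower, and 3 of the 9 peaks were called lower: CHGA 2101 (log2 -1.82, SE 0.83, adjusted p = 0.0679), STMN2 351 and NEFL 1930 (log2 -3.63, SE 0.77, adjusted p = 0.000259). STMN2 351 held at most 6 input reads in any S0 library, under the 10 asked of a ratio, and 1 IP read in all, so no size is given for it. The call of CHGA 2101 was lost without MEL1 replicate 1 (log2 -1.81, adjusted p = 0.134) or replicate 2 (log2 -0.92, adjusted p = 0.407). With H1 alone its log2 value was -0.51, under the 2-fold limit. Without H1 replicate 1, STMN2 1051 was added (adjusted p = 0.0324). At S3 the background was 30.3% higher and 31% lower, and 5 of the 9 were called lower, namely CHGA 2751, the 3 STMN2 peaks and NEFL 1930. MEL1 held 0 input reads of the 3 STMN2 peaks and of NEFL 1930 at S3, so those 4 calls rest on H1, with 6 to 45 input reads a library. With a mean for each group of line and stage all 4 were lost (adjusted p = 0.958 to 1), while CHGA 1151 and CHGA 1751 were called lower (adjusted p = 0.00528 and 0.0032). Without H1 replicate 2 at S3 only 3 were called, as STMN2 851 and STMN2 1051 were lost (adjusted p = 0.119 and 0.164). At S4 it was 20.8% higher and 32.1% lower, and 4 of the 9 were called lower, CHGA 2751 and the 3 STMN2 peaks. STMN2 1051 was lost there without H1 replicate 1 or MEL1 replicate 1 (adjusted p = 0.167 and 0.163). With MEL1 alone it was lost as well (adjusted p = 0.132), while CHGA 1151, CHGA 2101 and NEFL 1930 were called lower (0.000132, 0.00147 and 0.001). CBLN1 1395 was called lower with DESeq2 and with RLE factors (adjusted p = 0.0608 and 0.0852). With IP and input paired by preparation CHGA 1151 was called lower as well, at S3 (log2 -1.40, adjusted p = 0.0254) and at S4 (log2 -1.43, adjusted p = 0.00885). With a mean for each group of line and stage, 8 of the 9 were called lower at S4, since CHGA 1151 (log2 -1.61), CHGA 2101 (-4.65), CBLN1 1395 (-1.19) and NEFL 1930 (-2.69) were added. Higher input at S4 entered the choice of the genes, so a low ratio at S4 is not independent of it.

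At S6, 8 of the 9 peaks were called lower in IP than in input, where 28.4% of all peaks were called higher and 34.6% lower. The log2 values ran from -4.64 (SE 1.02, adjusted p = 0.000311) for STMN2 851 to -1.18 (SE 0.53, adjusted p = 0.0544) for CBLN1 1395. CHGA 1751 was the exception, at -0.93 (SE 0.59, adjusted p = 0.172). It was called lower too with RLE factors (log2 -1.36, adjusted p = 0.0438), with DESeq2 (log2 -1.36, adjusted p = 0.0362) and with MEL1 alone (log2 -1.03, adjusted p = 0.0394). CBLN1 1395 lost its call without H1 replicate 1, H1 replicate 2 or MEL1 replicate 1 (adjusted p = 0.107 to 0.147), and STMN2 1051 without H1 replicate 2 or MEL1 replicate 1 (adjusted p = 0.123 and 0.1). CBLN1 1395 was not called either with TMM within library types (log2 -0.95, adjusted p = 0.114) or with MEL1 alone (adjusted p = 0.319), and STMN2 1051 not with MEL1 alone (adjusted p = 0.116). The median of all peaks at S6 was -0.12 and that of the 9 peaks was -2.63. The same limit holds at S6, where higher input entered the choice too.

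Within CHGA the IP reads were spread over the 4 peaks in other proportions than the input reads, shown here as each peak's share of the gene's reads with a 95% Wilson interval, which covers counting error only. CHGA 1751 took 17.2% to 28.7% of the input reads over the 14 input libraries with at least 30 reads of the gene, and 31.1% to 62.7% of the IP reads. CHGA 2751 took 12.7% to 24.0% of input reads. Its share of IP reads was 0.174% (0.103 to 0.291) and 0.340% (0.229 to 0.506) in H1 at S4, and 22.9% (20.1 to 25.9) and 30.6% (27.2 to 34.3) in MEL1 at S0. The shares of the input libraries thus stayed within a narrow range for this peak while those of the IP libraries did not.

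**Figure D4:**
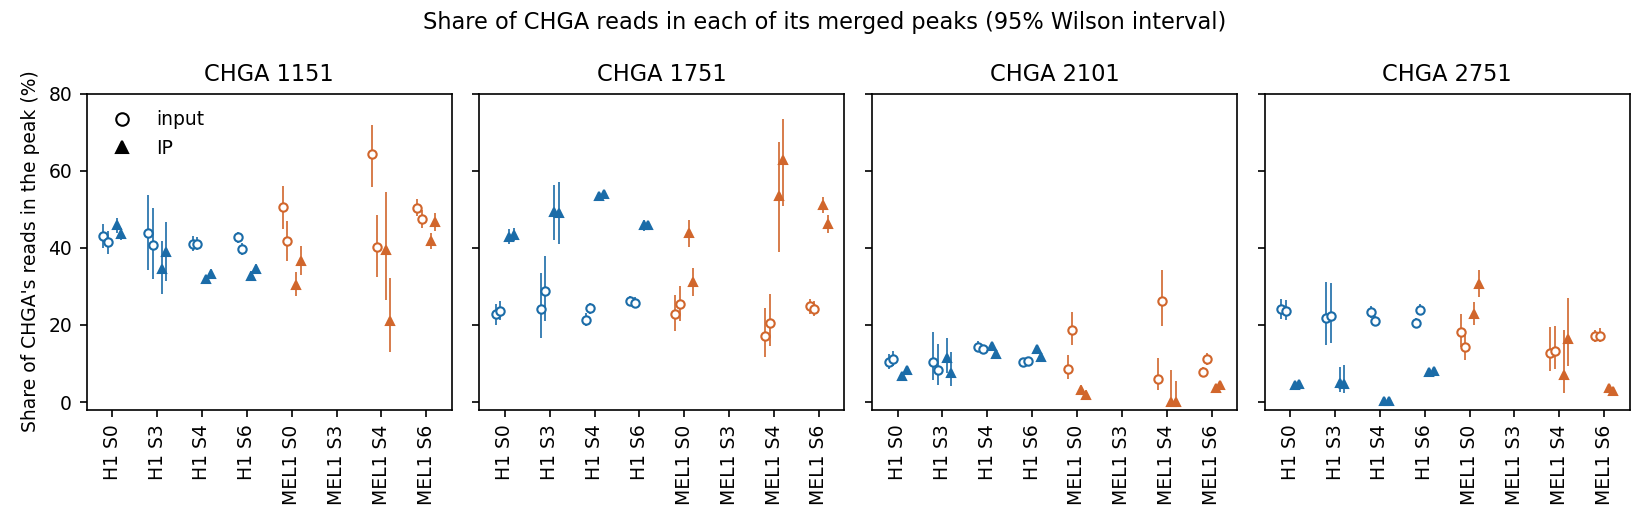
Share of all CHGA reads that fell in each of its 4 merged peaks, in percent with 95% Wilson intervals, for input (open circles) and IP libraries (filled triangles) of each line and stage. MEL1 at S3 is left out for under 30 reads of the gene. IP shares of CHGA 1751 lie above its input shares in every group, and those of CHGA 2751 lie below them except in MEL1 at S0 and in 1 of 2 MEL1 preparations at S4.

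The difference between the lines in IP over input was tested for each peak as the interaction of line and library type. At S3 edgeR called 0 of the 9 peaks, against 3.46% of all peaks, with 1 of them, CHGA 1751, at an unadjusted p under 0.05 (adjusted p = 0.12). MEL1 held at most 13 input reads of any of the 9 peaks there and 0 of 5 of them, so no S3 sizes are given. At S0, 3 of the 9 peaks were called, against 16.1% of all peaks, all of them in CHGA. CHGA 2751 was higher in MEL1 (log2 2.47, SE 0.38, adjusted p = 0.000138), and CHGA 1151 (log2 -1.14, SE 0.38, adjusted p = 0.0475) and CHGA 2101 (log2 -2.58, SE 0.74, adjusted p = 0.0246) were lower. CHGA 2751 was the only one of them called without H1 replicate 1, H1 replicate 2 or MEL1 replicate 2, where CHGA 1151 had adjusted p from 0.157 to 0.235 and CHGA 2101 from 0.13 to 0.411. The log2 value of CHGA 2101 was -1.21 without MEL1 replicate 2 and -3.92 without MEL1 replicate 1, when CHGA 1751 was called too (adjusted p = 0.0117). With RLE factors CHGA 1151 was not called (log2 -0.77, adjusted p = 0.204), while the median of all peaks moved from -0.24 to 0.13. CHGA 1151 was not called either with DESeq2 (adjusted p = 0.104) or with TMM within library types (0.156). The same held with IP libraries thinned to the depth of the shallowest (0.144).

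At S4, 6 of the 9 were called, but so were 40.2% of all peaks, and the MEL1 IP libraries at S4 were the shallowest. CHGA 2751 was again higher in MEL1 (log2 4.50, SE 0.58, adjusted p = 2.82e-06). CHGA 1151 (log2 -2.53, SE 0.44, adjusted p = 0.000105), CHGA 1751 (log2 -1.55, SE 0.48, adjusted p = 0.0135) and NEFL 1930 (log2 -5.30, SE 1.18, adjusted p = 0.00132) were lower. CHGA 2101 and STMN2 351 were called lower with 0 IP reads in both MEL1 libraries (adjusted p = 0.000387 and 0.0525), so no size is given. The calls of CHGA 1151, CHGA 2101, CHGA 2751 and NEFL 1930 held without any 1 preparation, but the sizes moved. CHGA 2751 ran from 3.22 without MEL1 replicate 2 to 5.20 without MEL1 replicate 1, and CHGA 1151 was at -1.83 without H1 replicate 1. NEFL 1930, which rests on 1 IP read in MEL1, was at -4.30 without H1 replicate 1 and -4.48 without MEL1 replicate 2, and without MEL1 replicate 1 it has no size, since 0 IP reads are left. CHGA 1751 lost its call without H1 replicate 1 (adjusted p = 0.357) or MEL1 replicate 1 (0.12), and STMN2 351 without H1 replicate 2 (1) or without MEL1 replicate 1 or 2 (0.163 and 0.153). Without MEL1 replicate 1, STMN2 851 and STMN2 1051 were called higher in MEL1 (adjusted p = 0.0514 and 0.0945). With all libraries, DESeq2 called both higher as well (adjusted p = 0.0381 and 0.0866), and STMN2 851 was called higher with RLE factors (0.0814) and with TMM within library types (0.0804), but without MEL1 replicate 2 its log2 value was -1.30. With the reads of each IP library thinned at random to the 2378881 of the shallowest, 4 of the 9 were called, since CHGA 1751 (adjusted p = 0.151) and STMN2 351 (adjusted p = 1) were lost.

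At S6, 2 of the 9 peaks were called, where 2.79% of all peaks were. CHGA 2101 (log2 -2.19, SE 0.66, adjusted p = 0.0949) and CHGA 2751 (log2 -1.73, SE 0.37, adjusted p = 0.0185) were lower in MEL1 than in H1. Neither was called with IP and input paired by preparation (adjusted p = 0.154 and 0.119) or with thinned IP libraries (adjusted p = 0.197 and 0.169), although the log2 values moved little, to -2.18 and -1.73 when paired and to -1.90 and -1.57 when thinned. CHGA 2101 lost its call without any 1 of the 4 preparations (adjusted p = 0.21 to 0.476). CHGA 2751 lost it without H1 replicate 1, H1 replicate 2 or MEL1 replicate 1 (adjusted p = 0.154 to 0.262). CHGA 2751 thus was called higher in MEL1 at S0 and S4, while its lower value at S6 was called only with preparations unpaired. The other 7 peaks were not called at S6, with log2 differences from -2.75 (SE 1.10) for STMN2 851 to 0.27 (SE 0.65) for CBLN1 1395.

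Genes related to the 4 by function were taken from 10 lists that name 157 genes, of which 67 had counts. They were listed by function, but with earlier results of these data known, so their counts are not independent evidence. Their stage changes were tested with stage and cell line in the model. From S4 to S6, 9 of the 67 were called higher and 0 lower with edgeR, against 2.85% and 2.33% of all genes. At an unadjusted p under 0.05, 16 were higher and 2 lower, and DESeq2 called 11 higher and 1 lower. Only 5 were called without H1 replicate 1 at S4, H1 replicate 2 at S6 or MEL1 replicate 2 at S4. With each line alone, 24 were higher and 4 lower in H1, and 13 were higher and 4 lower in MEL1. Their median log2 change was 0.43, and that of all genes was -0.03. From S3 to S4, 3 were called higher and 0 lower, with a background of 1.49% and 0.351%. Here 18 were higher and 3 lower at an unadjusted p under 0.05, DESeq2 called 10 higher and 1 lower, and 7 were called without H1 replicate 1 at S4. With each line alone the count was 15 in H1 and 22 in MEL1. From S0 to S3, 15 were called higher and 15 lower, where 15% and 13.8% of all genes were.

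Among neurofilament and other intermediate filament genes 2 of 9 rose from S4 to S6. NEFM, the medium neurofilament chain that assembles with NEFL, rose by 3.46 on the log2 scale (SE 0.80, adjusted p = 0.0193), from 197 and 191 CPM in H1 and 47.0 and 36.9 CPM in MEL1 to 2818 and 2695 CPM and 349 and 353 CPM. Like NEFL, it had 0 reads in MEL1 at S3. INA, the neurofilament protein α-internexin, rose by 2.69 (SE 0.71, adjusted p = 0.0367). KRT19 and NES, those with the most input reads of the rest, were not called, with log2 changes of 0.98 (SE 0.45) and -0.26 (SE 0.79).

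Of 13 stathmin and neuronal microtubule genes 4 rose from S4 to S6. At an unadjusted p under 0.05, 5 were higher and 1 lower, and DESeq2 called 4 higher and 1 lower. GAP43, a growth cone protein, rose by 2.30 (SE 0.64, adjusted p = 0.0446), the kinesin motor gene KIF5C by 1.82 (SE 0.34, adjusted p = 0.00528) and DPYSL2, which binds tubulin dimers in growing axons, by 1.61 (SE 0.26, adjusted p = 0.00195). STMN3, the other stathmin with counts, rose by 1.44 (SE 0.47, adjusted p = 0.0844), from 55.3 and 47.3 CPM to 128 and 132 CPM in H1. The tubulin genes TUBB2B and TUBB2A had log2 changes of -0.33 (SE 0.32) and -0.23 (SE 0.34) and were not called.

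Among the 6 granin and prohormone processing genes with counts, VGF, a granin-like secretory protein, was called from S4 to S6 and rose by 2.22 (SE 0.61, adjusted p = 0.0446). It was at 21.7 and 22.3 CPM in H1 and at 8.59 and 12.9 CPM in MEL1 at S6. The carboxypeptidase genes CPD and CPE had log2 changes of 0.01 (SE 0.19) and -1.15 (SE 0.64) and were not called. Of 9 genes of regulated exocytosis, the synaptotagmin genes SYT13 (log2 1.41, SE 0.40, adjusted p = 0.0525) and SYT11 (log2 1.04, SE 0.34, adjusted p = 0.0892) rose. VAMP2 and SV2A, proteins of the vesicle membrane, changed by 0.99 (SE 0.28, adjusted p = 0.0519, under the 2-fold limit) and 0.67 (SE 0.36).

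Of 13 listed genes of cerebellins, C1q-like proteins and their receptors, 3 had counts. NRXN2, a neurexin, was called higher from S3 to S4 (log2 2.59, SE 0.64, adjusted p = 0.0565), and in MEL1 the comparison starts from 0 reads at S3. NRXN3 had a log2 change from S4 to S6 of -0.18 (SE 0.51). Of 9 genes of REST, the repressor of neuronal genes outside neurons, and its corepressors, none was called by edgeR or DESeq2 from S3 to S4 or from S4 to S6, and at an unadjusted p under 0.05 it was 1 higher and 1 lower in the earlier step and 0 in the later. REST had log2 changes of -0.29 (SE 0.25) and -0.36 (SE 0.25) in these steps, and RCOR2 of 1.17 (SE 0.50) and -0.60 (SE 0.50).

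**Figure D5:**
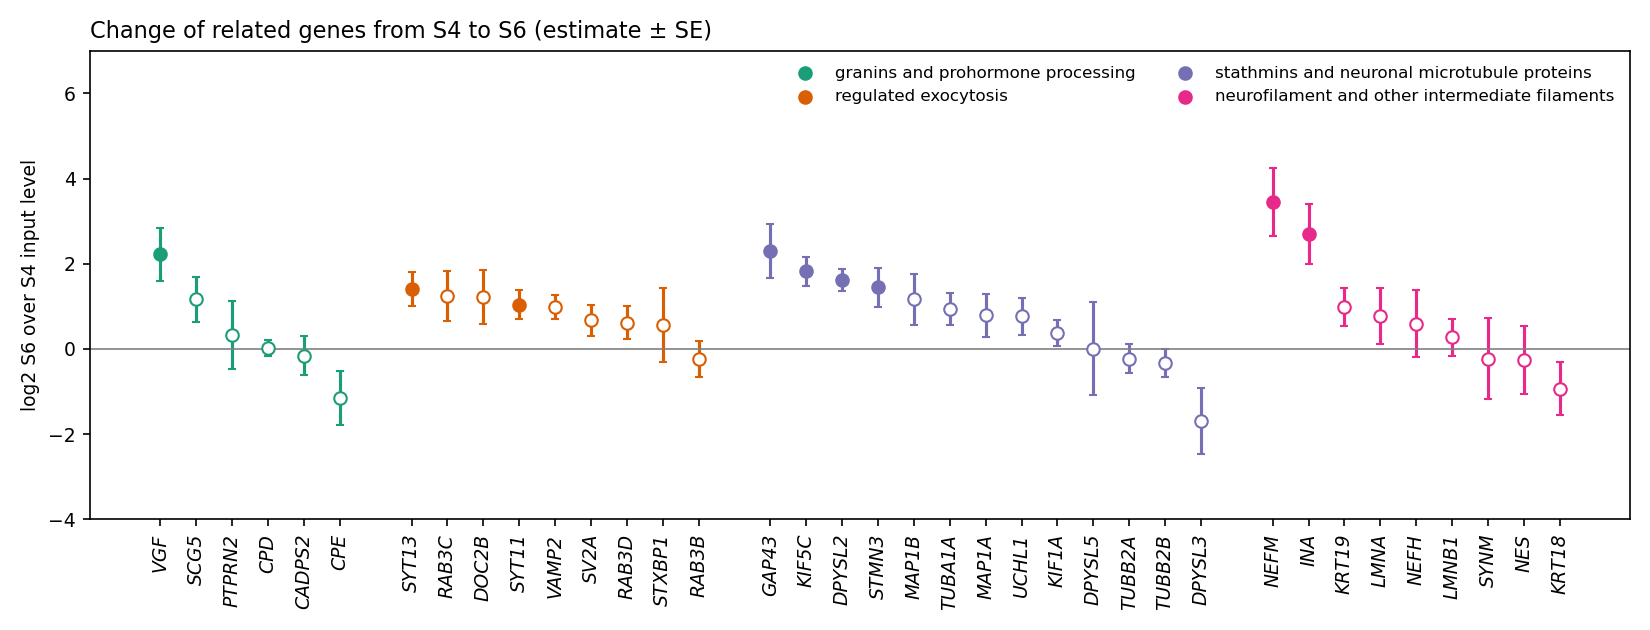
Log2 change in input level from S4 to S6 for the measured genes of 4 lists related to CHGA, STMN2 and NEFL, with standard errors from the model with stage and cell line. Filled points were called. NEFM has the largest change at 3.46, followed by INA at 2.69 and GAP43 at 2.30, and none of the genes plotted was called lower in this model.

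The related genes also differed between the lines. At S4, 36 of the 67 were called lower and 9 higher in MEL1 than in H1, where 18.4% of all genes were lower and 15.6% higher. At S6 it was 30 lower and 6 higher, where 10.8% of all genes were lower and 11.7% higher. Of 13 stathmin and microtubule genes, 12 were called lower in MEL1 at S6, with a median log2 difference of -2.10. The log2 difference was -2.97 for NEFM and -2.93 for GAP43.

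Markers of other cell types differed between the lines as well. Of 20 neural lineage markers 5 had counts, and their summed level was 406 to 482 CPM in H1 and 84.5 to 114 CPM in MEL1 at S4, and 284 to 288 CPM and 80.7 to 83.5 CPM at S6. At S0 it was 113 to 120 CPM and 45.3 to 52.7 CPM. From S3 to S4, ZIC1 rose by 3.21 (SE 0.55, adjusted p = 0.00789) and POU3F2 by 2.55 (SE 0.50, adjusted p = 0.0191), both transcription factors of neural development, and EMX2 and OTX2 were not called. From S4 to S6 none of the 5 was called by edgeR, by DESeq2 or at an unadjusted p under 0.05, and their median log2 change was -0.15. Between the lines, 3 of the 5 were called lower in MEL1 both at S4 and at S6, namely ZIC1, SOX1 and POU3F2. Of all genes, 18.4% were called lower at S4 and 10.8% at S6. EMX2 (log2 -0.30, adjusted p = 0.597) and OTX2 (log2 0.80 toward MEL1, adjusted p = 0.00369, under the 2-fold limit) were not called at S4. At S4, ZIC1 was at 260 and 227 CPM in H1 and at 19.3 and 16.2 CPM in MEL1, and SOX1, named for its values, had 77 and 168 reads in H1 and 0 in MEL1. Duct, exocrine and mesenchyme markers, with 7 of 12 counted, summed to 1510 to 1540 CPM in H1 and to 8540 to 9360 CPM in MEL1 at S6, most of it KRT19, which was at 1172 and 1201 CPM in H1 and at 7804 and 8706 CPM in MEL1. Of these 7, 4 were called higher in MEL1 and 0 lower at S4, where 15.6% and 18.4% of all genes were. At S6 it was 3 higher and 1 lower, beside 11.7% and 10.8% of all genes. The median log2 difference of the 7 at S6 was 0.26. None of the 7 was called from S4 to S6 by edgeR or DESeq2, with 1 higher and 1 lower at an unadjusted p under 0.05. The 8 enterochromaffin markers had no merged peak. Of the 7 endocrine transcription factors none was called by edgeR from S3 to S4 or from S4 to S6, where DESeq2 called 2 and 0 and an unadjusted p under 0.05 gave 3 and 1, all higher, with SOX4 at -0.05 (SE 0.14) and SOX11 at 0.57 (SE 0.18, adjusted p = 0.0774, under the 2-fold limit) in the later step. From S0 to S3, 3 of the 7 were called higher, ISL1, GLIS3 and MNX1, and 0 lower, where 15% and 13.8% of all genes were. From S0 to S6 it was 5 of 7 higher and 0 lower, where 17.5% of all genes were called higher and 13.8% lower. Of the 5 neural lineage markers, 4 were called higher and 0 lower from S0 to S3, and 4 higher and 1 lower from S0 to S6. Of the 7 duct, exocrine and mesenchyme markers it was 2 higher and 1 lower, and 3 higher and 0 lower. The part of these cell types in the levels of CHGA, STMN2, NEFL and CBLN1 was not tested.

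Genes with the most similar profile were ranked by Pearson's r of log2 CPM over the 16 input libraries among the 7718 genes whose mean reached 1 CPM. The points share 8 groups of line and stage, so r is a description. The ranking depended on the measure and on the lines, since of the 5 genes named first for each, 1 to 3 were also among the first 5 by Spearman's rho over all libraries and 0 or 1 within either line. NEFL was most like NEFM (r = 0.979), followed by ENO2 (0.962), IGDCC3, GAP43 and CDH4 (0.942). CHGA was most like FGF11 (0.935), STC1, ENO2, ENSG00000262880 and DDIT4 (0.925). CBLN1 was most like SYT13 (0.924), SEPTIN5, CELF4, L1CAM and ARRDC4 (0.875), and STMN2 most like TFAP2A (0.934), ZFP36L1, TIMP2 and LSAMP. ENO2, the neuronal enolase, was the only gene named for 2 of the 4. Among themselves the 4 genes had r from 0.690 for CHGA with STMN2 to 0.914 for CHGA with NEFL.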

How the data were processed

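RNA of H1 and MEL1 cells at S0, S3, S4 and S6 was sequenced as input and IP libraries, 32 in all, grouped by the labels into line, stage and library type with 2 replicates each, which the study describes as independent biological samples. The authors used MeRIPtools to count reads in 50-bp bins (Ensembl annotation version 94), to call peaks and to merge them, and deposited raw counts for each merged peak. The aligner and genome build are not given in the sources used here. The table held 26104 peaks of 7978 genes, and 7596 of these have a symbol.

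A gene's input count is the sum over its merged peaks, so it follows the methylated stretches of a transcript and not its whole length. The tests ran in edgeR 4.0.16 under R 4.3.3 (TMM factors, quasi-likelihood test, features with at least 10 reads in total). Calls were made at 2-fold or more and a p under 0.1 after Benjamini-Hochberg adjustment. The count filter follows the study's methods, and the limits of 2-fold and of 0.1 for the false discovery rate follow its results. Line differences used a mean for each line and stage over the 16 input libraries, IP over input used stage and library type with the line over all 32, its line difference used 16 means, and related genes used stage and line. A standard error is the log2 value over the square root of F. A count of 0 was set to 3 reads per library for bounds. The tests were tried on simulated data first. Figures were drawn with Python 3.11.15 and matplotlib 3.10.9.

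The 4 genes and the lists of related genes were chosen with earlier results of these data known. Beside the 4 genes and their peaks, the text names the 5 genes most like each, and from each list up to 4 genes called from S3 to S4 or from S4 to S6, by smallest p, and up to 2 not called, by highest mean CPM. Of the genes this rule names, 2 are not reported here. Alternatives were DESeq2 1.42.0, RLE factors, factors within input and IP, other filters, replicate or preparation blocks, each line alone and each preparation left out. Deviations of same-numbered input libraries correlated at -0.0327 to 0.0518 in H1, and at 0.0639 to 0.145 in MEL1, where 5 of 6 stage pairs were above 0.1. Not every pair being above it, the numbers were not taken as pairs. IP and input of a preparation are paired by their labels.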

Additional observations from a re-analysis of the deposited data

Results flagged for a closer look

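Called differences between H1 and MEL1 are collected here for input change between adjacent stages and for IP over input at S0, S4 and S6. Line differences in input level within a stage are given above and not repeated. For the input level, the change from S0 to S3 differed between the lines for STMN2 (edgeR's quasi-likelihood test, Benjamini-Hochberg adjusted p = 0.000431) and NEFL (2.02e-05), and the change from S3 to S4 differed for STMN2 (8.61e-07) and NEFL (0.0232). Both genes had 0 reads in MEL1 at S3. Rises at S4 or S6 entered the choice of the genes, so the input results collected here are not independent of it. The change from S4 to S6 differed for CHGA (adjusted p = 4.01e-09), which was larger in MEL1, and for STMN2 (1.4e-06) and CBLN1 (0.0984), which were smaller.

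For IP over input, the lines differed at S0 in CHGA 1151 (adjusted p = 0.0475), CHGA 2101 (0.0246) and CHGA 2751 (0.000138). At S4 they differed in CHGA 1151 (adjusted p = 0.000105), CHGA 1751 (0.0135), CHGA 2101 (0.000387), CHGA 2751 (2.82e-06), STMN2 351 (0.0525) and NEFL 1930 (0.00132), where 40.2% of all peaks were called. At S6 they differed in CHGA 2101 (adjusted p = 0.0949) and CHGA 2751 (0.0185), and neither was called with IP and input paired by preparation.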

How the results depend on the processing

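The counts of members that differed between the lines in input level at S4 and at S6 stayed at 3 under every setting tried. For the related genes from S3 to S4 the count of 3 became 11 with DESeq2, 0 without the cell line in the model, 15 with H1 alone, 22 with MEL1 alone, and 2 to 7 with 1 library left out. From S4 to S6 the 9 became 1 without the cell line, 28 with H1 alone, 17 with MEL1 alone, and 5 to 12 with 1 library left out.

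For IP over input at S0 the 3 peaks became 5 with DESeq2, with means for each line at each stage, or with MEL1 alone. At S3 the 5 became 3 with such means, 1 with MEL1 alone and 3 to 5 with 1 preparation left out, and at S4 the 4 became 8 with such means. For the line difference in IP over input at S6 the 2 peaks became 1 with DESeq2, RLE factors, TMM within library types or the replicate number as a block, 0 with the preparation as a block or with thinned IP libraries, and 0 to 1 with 1 preparation left out. At S0 the 3 became 1 to 4. The line difference in input change became 2 to 4 genes from S0 to S3 and 1 to 2 from S3 to S4. With the replicate block, 6 peaks differed between the lines at S4 and 7 related genes rose from S4 to S6, and beside the calls given above and in the report the preparation block changed no other call in IP over input.

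Among the values whose sign turned, STMN2 851 at S3 was the only one called before, and none was called with its new sign. For IP over input at S0, DESeq2 gave log2 values of -0.197 for CHGA 1751 and -0.114 for CBLN1 1395, and RLE gave -0.192 and -0.114. At S3 CBLN1 1395 was at -0.51 with DESeq2, -0.497 with RLE, -0.21 with H1 alone and -0.250 to 0.568 with 1 preparation left out, and CHGA 2101 at 1.51 with means, 3.73 with MEL1 alone and -1.01 to 0.0911 with 1 left out. H1 alone gave 0.0708 for CHGA 1151 at S0, and 0.0445 for CHGA 2101 and 0.0453 for NEFL 1930 at S4. MEL1 alone gave 0.0413 for CHGA 2751 at S0, -0.317 for CHGA 1751 at S4 and 1.60 for STMN2 851 at S3, where its input libraries were at 0. CHGA 2751 at S0 was called lower with H1 alone (log2 -2.375, adjusted p = 6.39e-10) and with such means (-1.18, 7.36e-06). It was also called lower with DESeq2 (-1.41, 0.0737) and with RLE factors (-1.50, 0.0614).

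For the line difference in IP over input at S6, STMN2 1051 was at 0.228 with DESeq2, 0.232 with RLE, 0.239 with TMM within library types, 0.395 with thinned IP libraries and -0.666 to 0.562 with 1 preparation left out, and NEFL 1930 at 0.177 with thinned libraries. At S4 CBLN1 1395 was at 0.0093 with TMM within library types, 1.0 with thinned libraries and -2.38 to 1.17 with 1 left out, STMN2 851 at -1.30 to 5.17 and STMN2 1051 at -0.0828 to 2.65. At S0 CBLN1 1395 was at 0.155 with thinned libraries, STMN2 1051 at -8.80 to 0.978 and STMN2 851 at -6.49 to 1.07, both from at most 3 input reads a library, too few for a size. In input, with 1 library left out, the line difference ran from -2.19 to 1.11 for STMN2 and -0.534 to 0.468 for NEFL at S0 and from -0.903 to 1.34 for CBLN1 at S4, and that of the change from S3 to S4 from -1.11 to 0.113 for CHGA and -0.239 to 4.50 for CBLN1. The cause of these turns was not tested, no alternative was run for the S3 line difference in IP over input, and thinning, the preparation block for line differences and the alternatives for line differences at S0, at S3 and in input change were chosen after seeing the data.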
